A study of Rattus norvegicus with 32 samples.

Results

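Ribosomes in the cytosol are built from ribosomal RNA and a fixed set of proteins, and the genes that encode those proteins were followed here in the uterus of 1-year-old rats given bisphenol A (BPA) or ethinyl estradiol (EE2). The members were the genes whose whole rat symbol is Rpl, Rps or Rplp followed by a number, together with Rpsa and Rpl22l1. After the number, Rpl and Rps symbols could carry a single letter, and Rpl symbols a single digit as well. Longer symbols such as Rpl36al1 were outside the rule. The rule matched 83 of 17327 genes in the deposited count table, and leaving out 2 pseudogenes gave 81 members. Kinases of the Rps6k family and mitochondrial ribosomal proteins were not counted as members. Low-count filtering left 78 members in the tests, of which 31 encode proteins of the small subunit, 44 proteins of the large subunit and 3 proteins of the stalk. The untested members were Rpl3l with 12 counts over all libraries, Rpl27l2 with 14 and Rpl39l1 with 145.

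The small subunit decodes the messenger RNA and the large subunit joins amino acids, while the stalk proteins Rplp0, Rplp1 and Rplp2 recruit the factors that drive elongation. Because a ribosome holds its proteins in fixed proportions, mammalian cells make them coordinately, and many of their messenger RNAs begin with a run of pyrimidines (the terminal oligopyrimidine tract) through which mTOR signalling controls their translation. Estrogens are known to raise protein synthesis and growth in the rodent uterus.

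All animals were Sprague-Dawley rats of the CD23/NctrBR colony, and each of 8 groups had 4 libraries. Daily doses, in µg per kg of body weight, were 0.05 or 0.5 for EE2 and 2.5, 25, 250, 2500 or 25000 for BPA, against a vehicle control of 0.3% carboxymethylcellulose. Dams were gavaged from gestation day 6 until labor, and pups were gavaged directly from postnatal day 1 (PND1) until uteri were collected at PND365. Groups are called below by agent and dose, as in BPA 2.5, and replicate numbers only name the libraries of a group in the order of deposit. The labels give no animal, litter, batch or estrous stage for a library, so p-values measure the spread between these libraries.

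The libraries held 11777809 to 24661856 counts, and at the lowest depth 3 counts are worth 0.255 CPM, the count scaled to the size of the library. Smooth muscle markers (Myh11, Acta2, Actg2, Des, Cnn1) summed to 8631, 17096, 9282 and 22980 CPM at BPA 2.5, against 14460 to 28844 CPM in controls. BPA 2.5 replicates 1 and 3 thus lay below every control. Stroma markers (Pdgfra, Col1a1, Vim) summed to 1679, 4099, 2273 and 5167 CPM at BPA 2.5, against 2301 to 8758 CPM in controls. The uterine genes Hoxa10 and Hoxa11 were not analysed here. The part of muscle and stroma in the results below was not tested. BPA 2.5 replicates 1 and 3 stood apart from the other libraries of their group in markers of ciliated cells (Foxj1, Spag6l, Dnaaf1, Drc1, Ccdc40), which summed to 421 and 308 CPM there, against 3.08 and 2.68 CPM in replicates 2 and 4. BPA 250 replicate 1 and BPA 25000 replicate 3 were also set apart in an earlier analysis of these data, and the counts of members called that change without these 4 libraries are given with and without them. Without them, BPA 2.5 is left with replicates 2 and 4 alone. Of the 81 members, 76 have another copy by symbol in the rat reference, with 1 to 36 copies each and a median of 14.5, and 41 overlap another gene. How reads from such copies were assigned is not given in the sources used here, so a level can include or lose reads of a copy.

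Many of the genes share a feature at their start that the choice of members did not use. RefSeq start windows (build GRCr8) were found for 65 of the 81 members, and the pyrimidine tract sought was a C followed by at least 4 further C or T bases, on the gene's strand, beginning within 5 bases of the annotated start. Of the 65 members, 38 (58.5%) held it, against 4656 of 27455 promoters (17%). The windows below run from 10 bases before the start to 20 from it and show, in capitals, the tract where there is one. The first 4 are the parent and paralogue pairs compared further on, and the last 3 belong to genes named below at BPA 2.5, at BPA 250 and in the dose trend.
Rpl22: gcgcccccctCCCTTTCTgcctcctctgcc
Rpl22l1: gtggatatccggttccgagttgcgcagcgc
Rps27: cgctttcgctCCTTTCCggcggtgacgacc
Rps27l: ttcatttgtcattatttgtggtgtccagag
Rpl39: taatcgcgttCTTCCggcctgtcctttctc
Rps18: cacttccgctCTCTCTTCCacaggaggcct
Rpl27a: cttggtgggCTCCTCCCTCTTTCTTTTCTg
These windows lie at chr5:168117951-168117980 (plus strand) for Rpl22, chr2:113683186-113683215 (plus) for Rpl22l1, chr2:177964587-177964616 (minus) for Rps27 and chr8:76443648-76443677 (plus) for Rps27l. Those of Rpl39, Rps18 and Rpl27a lie at chrX:121195877-121195906 (minus), chr20:4933735-4933764 (plus) and chr1:172974563-172974592 (plus). Both parents, Rpl22 and Rps27, begin with a tract, and neither paralogue has one in its window. Within the 300 bases around the start, on either strand, the letters CCGGAA, which ETS factors bind, stood in 50.8% of the 65 members and in 15.8% of all promoters. GGGCGG, bound by SP and KLF factors, stood in 55.4% of members and 34.9% of promoters, AAGATGG, the core letters of YY1 sites, in 13.8% of members and 7.3% of promoters, and TATAA in 24.6% of members and 26.1% of promoters. These matches are descriptions of letters and not of bound sites.

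The share of all counts that fell in the 81 members averaged 3.10% ± 0.35 at EE2 0.05 and 2.76% ± 0.73 at EE2 0.5, against 3.55% ± 0.74 in controls (SD, n = 4 each). Along the BPA doses it was 2.41% ± 0.81 at 2.5, 3.06% ± 0.39 at 25, 2.99% ± 0.68 at 250, 3.06% ± 0.57 at 2500 and 3.22% ± 0.47 at 25000 µg per kg per day. The BPA 2.5 group therefore had the lowest mean and the controls the highest. Library by library, the share was 2.51, 1.95, 3.50 and 1.68% at BPA 2.5, against 2.73, 3.56, 4.52 and 3.38% in controls. BPA 2.5 replicate 3 lay inside the control range, its other 3 libraries lay below every control, and control replicate 3 was the highest of the 32 libraries. In bulk tissue, fewer cells of a type and less of a transcript per cell cannot be told apart.

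**Figure D1:**
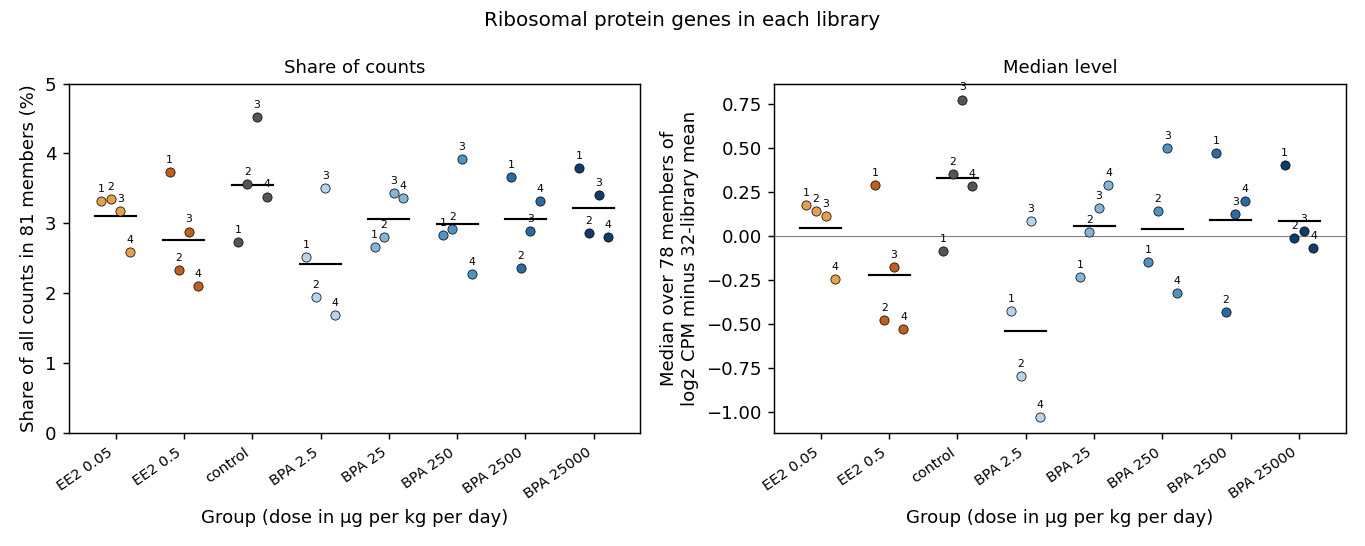
Each point is a library, numbered by replicate, and each bar the mean of 4. The left panel gives the share of counts in the 81 genes (%) and the right panel the median over 78 genes of log2 CPM minus the gene's 32-library mean. BPA 2.5 replicates 2 and 4 are the lowest libraries by median (-0.80 and -1.03) and control replicate 3 the highest (0.78).

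The genes moved together between libraries. The first principal component of their log2 CPM held 68.7% of the variance over the 32 libraries. BPA 2.5 replicate 4 was the lowest of all libraries for 41 of the 78 tested members and replicate 2 for 27, while control replicate 3 was the highest for 31 and BPA 250 replicate 3 for 16. The standard deviation over all libraries ran from 0.22 log2 units for Rpl3, a core protein near the peptidyl transferase centre, to 0.87 for Rpl22l1, with a median of 0.47, against 0.43 over all tested genes. The fold between a member's highest and lowest library was 2.03 to 12.8.

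At BPA 2.5, the lowest dose of BPA, 41 of 78 members were lower than in controls and none was higher (edgeR's quasi-likelihood test, Benjamini-Hochberg adjusted p under 0.05 over all 13312 genes tested). The background for a lower call in this comparison was 4.39% of all genes, with 7.06% called higher and 11.4% in either direction. All 78 fitted log2 fold changes were negative, with a median of -0.78 and a range from -1.97 to -0.05, while the median over all genes was 0.05. In 26 members all 4 BPA 2.5 libraries lay below all 4 controls, against a background of 5.72% of genes, and 23 of those were among the 41. The calls covered 20 of 31 small subunit genes (median -0.97), 19 of 44 large subunit genes (median -0.70) and 2 of 3 stalk genes. Fitted among the BPA 2.5 and control libraries alone, without the other groups' estimate of the spread, 2 of the 41 were called, and 57 of 12482 genes.

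The most reduced member was Rpl22l1, the paralogue of the RNA-binding large subunit protein Rpl22. It had 50.3, 41.2, 56.1 and 20.3 CPM at BPA 2.5, against 95.9, 177, 260 and 124 CPM in controls. The groups did not overlap, and the log2 fold change was -1.97 (SE 0.34, adjusted p = 0.00261).

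Among small subunit genes, Rps29 had 286, 271, 371 and 155 CPM at BPA 2.5, against 497, 1002, 1270 and 699 CPM in controls, a log2 fold change of -1.68 (SE 0.37, adjusted p = 0.00486). All BPA 2.5 libraries were below all controls. Rps27l, the paralogue of Rps27, had 16.8, 18.1, 26.9 and 17.8 CPM at BPA 2.5, against 36.6, 69.1, 86.7 and 49.7 CPM in controls. Its log2 fold change was -1.60 (SE 0.33, adjusted p = 0.00392), again with no overlap. Other small subunit genes among the 12 most reduced were Rps28 (-1.46, adjusted p = 0.018), Rps27 (-1.40, adjusted p = 0.025), Rps20 (-1.38, adjusted p = 0.00429) and Rps21 (-1.35, adjusted p = 0.0076). Rps27 had 75.7, 57.7, 112 and 39.8 CPM at BPA 2.5, against 93.3, 184, 317 and 161 CPM in controls, so that BPA 2.5 replicate 3 overlapped with control replicate 1. Rps27a, which encodes a ribosomal protein fused to ubiquitin, and Rps4x fell by 1.12 and 0.91 on the log2 scale (adjusted p = 0.0251 and 0.0134). Rps6, the substrate of the S6 kinases downstream of mTOR, was not called, at -0.52 (adjusted p = 0.11), nor was Rpsa, also known as the laminin receptor, at -0.54 (adjusted p = 0.095).

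Among large subunit genes, Rpl39, whose protein lines the exit tunnel, had 140, 180, 204 and 83.5 CPM at BPA 2.5, against 256, 497, 675 and 418 CPM in controls. No BPA 2.5 library reached the lowest control, and the log2 fold change was -1.61 (SE 0.34, adjusted p = 0.00429). Rpl27 (-1.39, adjusted p = 0.00486), Rpl35a (-1.37, adjusted p = 0.0179), Rpl31 (-1.35, adjusted p = 0.00486) and Rpl38 (-1.35, adjusted p = 0.019), which in mouse embryos favours translation of Hox messenger RNAs, were also among the 12 most reduced. Rpl11 and Rpl5 form a complex with 5S ribosomal RNA that can bind the ubiquitin ligase Mdm2. Rpl11 had 103, 95.2, 128 and 81.1 CPM at BPA 2.5, against 146, 249, 283 and 212 CPM in controls, with a log2 fold change of -1.13 (SE 0.23, adjusted p = 0.00388), and Rpl5 fell by 0.74 (adjusted p = 0.0187). The panel genes Rpl3 (-0.43, adjusted p = 0.072), Rpl10 (-0.59, adjusted p = 0.071), Rpl7 (-0.53, adjusted p = 0.15), Rpl13a (-0.44, adjusted p = 0.25) and Rpl22 (-0.44, adjusted p = 0.26) did not pass.

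Of the stalk genes, Rplp1 had 1116, 1098, 1277 and 436 CPM at BPA 2.5, against 1318, 2205, 2814 and 1927 CPM in controls. The groups did not overlap, and Rplp1 fell by 1.07 (SE 0.26, adjusted p = 0.00833). Rplp0 fell by 0.64 (adjusted p = 0.046), and Rplp2 was at -0.57 (adjusted p = 0.28). Members with the pyrimidine tract had a median of -0.80 (38 genes) and tested members with a start window but no tract -0.60 (24 genes), given as a description. The order was the same at EE2 0.5 (-0.57 and -0.39), BPA 2500 (-0.24 and -0.22) and BPA 25000 (-0.24 and -0.19). It was reversed at BPA 25 (-0.24 and -0.40) and BPA 250 (-0.33 and -0.44), and EE2 0.05 had -0.35 and -0.34.

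**Figure D2:**
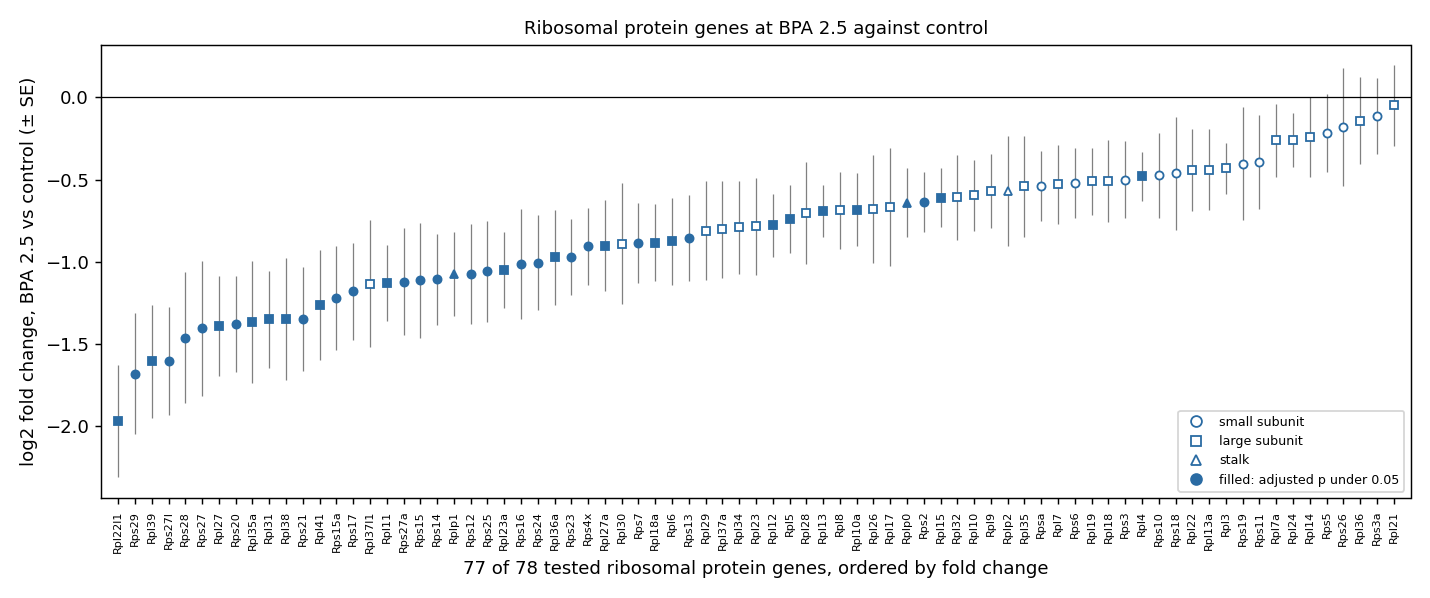
Log2 fold change (± SE) of BPA 2.5 against control for 77 of the 78 tested genes, ordered from the most reduced, with symbols for the subunit and filled symbols for the 41 genes with adjusted p under 0.05. All 77 points lie below 0, from Rpl22l1 at -1.97 to Rpl21 at -0.05.

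The count at BPA 2.5 rested in part on single libraries. Without control replicate 3 it was 12 of 78, and without BPA 2.5 replicate 1, 2, 3 or 4 it was 25, 33, 53 or 28. Here and below, counts with libraries left out come without the share of all genes called in the same fit, unless one is named. A change in such a count can therefore not be told from a change in calls over all genes. Called throughout, with each library left out in turn, were 12 genes, Rpl22l1, Rps29, Rpl39, Rps27l, Rps20, Rps21, Rps23, Rpl27, Rpl31, Rpl11, Rpl23a and Rpl13. Without the 4 libraries that stood apart, BPA 2.5 was left with replicates 2 and 4, the lowest of all libraries by member median (-0.80 and -1.03). In that fit 48 members were called, 35 of them among the 41, with a median of -1.15. Replicate 3, left out there, was the highest BPA 2.5 library for 38 of the 41. The markers of ciliated cells moved with this comparison: all 5 were higher at BPA 2.5, summing to 421, 3.08, 308 and 2.68 CPM, against 1.98, 0.81, 0.80 and 1.32 CPM in controls, where Foxj1 and Dnaaf1 were at 0 in 2 libraries each. The ribosomal protein genes were lowest in BPA 2.5 replicates 2 and 4, where these markers summed to 3.08 and 2.68 CPM. Markers of stratified epithelium (Krt5, Krt14, Krt13, Trp63) summed to 18.7 to 35.7 CPM at BPA 2.5, against 4.49 to 19.3 CPM in controls. Of the 4, Krt5 and Krt14 were higher, which in controls were at 0 in 2 and 3 libraries, while 1 had a negative fold change. Of 3 mast cell markers 1 was higher, with sums of 6.56 to 15.3 CPM at BPA 2.5, against 1.81 to 4.88 CPM in controls. Of the hormone receptor genes Esr1 and Pgr, Pgr was lower (-1.08, SE 0.35, edgeR adjusted p = 0.045) and Esr1 was not called. These 2 summed to 220 to 342 CPM at BPA 2.5, against 330 to 470 CPM in controls. The part of ciliated cells, stratified epithelium, mast cells and these receptors in the result was not tested.

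At EE2 0.5, the higher dose of this synthetic estrogen, 1 of 78 members was lower than in controls, Rpl22l1. The background was 0.293% of genes called lower and 0.556% in either direction, while DESeq2 called 9 members and voom 18. Backgrounds beside DESeq2 and voom counts, here and below, are those of edgeR. The shares of all genes that DESeq2 and voom called are not given. Rpl22l1 had 78, 60.6, 57.3 and 33 CPM at EE2 0.5, against 95.9, 177, 260 and 124 CPM in controls. Every EE2 0.5 library was below every control, and the log2 fold change was -1.52 (SE 0.34, adjusted p = 0.0425). The call was lost without any of EE2 0.5 replicates 2, 3 and 4 or controls 2, 3 and 4, with an adjusted p of 0.00258 to 0.22 over its alternatives, and without control replicate 1 the count was 8. Of the 78 members, 76 had a negative fold change, with a median of -0.53, and 40 had an unadjusted p under 0.05, against 15.6% of all genes. In 3 members the groups did not overlap, against 6.02% of genes. The next smallest p-values belonged to Rpl11 (-0.85, adjusted p = 0.0685), Rps27l (-1.18, adjusted p = 0.0731), Rps20 (-1.04, adjusted p = 0.0794), Rps21 (-1.12, adjusted p = 0.0846) and Rpl41 (-1.17, adjusted p = 0.0866), none of which passed. Krt5 and Krt14, 2 of the 4 markers of stratified epithelium, were higher in this comparison as well, while 1 of the 4 had a negative fold change. The 4 summed to 30.9 to 237 CPM at EE2 0.5, against 4.49 to 19.3 CPM in controls. The 3 mast cell markers, of which 1 was higher, summed to 4.88 to 26.1 CPM at EE2 0.5, against 1.81 to 4.88 CPM in controls. Their part in the result was not tested.

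At EE2 0.05 no member passed the test (0.0451% of genes were called, and 0.00751% were called lower), and none had an unadjusted p under 0.05, against 11.5% of all genes, although 77 of 78 fold changes were negative, with a median of -0.33. In 0 members did all EE2 0.05 libraries lie below all controls, against 5.66% of genes. DESeq2 and limma voom called 0 members as well. The smallest p-values belonged to Rpl12 (-0.37, adjusted p = 0.472), Rps2 (-0.33, adjusted p = 0.487), Rpl41 (-0.61, adjusted p = 0.488), Rpl13 (-0.28, adjusted p = 0.498), Rplp2 (-0.58, adjusted p = 0.517) and Rpl38 (-0.63, adjusted p = 0.519). With the EE2 doses averaged and set against control, 0 members were called (background 0.0676%, or 0.03% lower), with 30 at an unadjusted p under 0.05 against 15% of genes and a median of -0.39, while DESeq2 called 1 and voom 12. Between EE2 0.5 and EE2 0.05 the count was 0 (background 0.015%), also by DESeq2 and voom, with 10 members at an unadjusted p under 0.05 against 9.01% of genes. Rpl22l1 had the smallest p there (-1.09, adjusted p = 0.384), followed by Rpl23a, Rps20, Rpl10, Rpl39 and Rps4x at adjusted p of 0.502 to 0.514. Krt5 and Krt14, 2 of the 4 markers of stratified epithelium, were higher at EE2 0.05 and for the mean of the EE2 doses too. In both comparisons 1 of the 4 had a negative fold change. The 4 summed to 1.73 to 392 CPM at EE2 0.05, against 4.49 to 19.3 CPM in controls, and their part was not tested. All comparisons with control share the same 4 control libraries.

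At BPA 250, 5 members were lower than in controls and none higher, against a background of 4.35% of genes called lower, 4.44% higher and 8.79% in either direction, a share of members (6.41%) near the background. Of these, 4 encode small subunit proteins. Rps18 had 88.7, 139, 164 and 86.7 CPM at BPA 250, against 193, 245, 317 and 275 CPM in controls, and the groups did not overlap (-1.11, SE 0.35, adjusted p = 0.044). Rps19, mutated in many people with Diamond-Blackfan anaemia, had 223, 275, 314 and 184 CPM at BPA 250, against 460, 428, 667 and 582 CPM in controls, without overlap (-1.10, SE 0.35, adjusted p = 0.0457). Rps2 (-0.58, adjusted p = 0.0424), Rpsa (-0.68, adjusted p = 0.0445) and the large subunit gene Rpl13 (-0.49, adjusted p = 0.0475) were the others, and Rpl22 just missed the threshold (-0.76, adjusted p = 0.0524). The median over the 78 was -0.27, 19 had an unadjusted p under 0.05 against 28.6% of genes, 59 fold changes were negative, and in 5 members all BPA 250 libraries lay below all controls, against 9.77% of genes. No member was called without BPA 250 replicate 1 or 4 or control replicate 2, 3 or 4, 8 were called without BPA 250 replicate 3, and 1 without the 4 libraries that stood apart. Of the 3 mast cell markers, Tpsab1 was lower and at 0 in all 4 BPA 250 libraries, against 0.0725 to 0.444 CPM in controls. The 3 markers summed to 3.95 to 14.6 CPM at BPA 250, against 1.81 to 4.88 CPM in controls, and the part of mast cells in the result was not tested.

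At BPA 25 no member passed (background 1.92%, with 0.969% lower and 0.954% higher), 13 had an unadjusted p under 0.05 against 24.4% of genes, and DESeq2 called 3 and voom 10. Among the smallest p-values were those of Rpsa (-0.70, adjusted p = 0.0619), Rpl13 (-0.49, adjusted p = 0.07), Rps18 (-1.03, adjusted p = 0.0814), Rps2 (-0.52, adjusted p = 0.0902) and Rps19 (-0.96, adjusted p = 0.101). Rps18 had 87.6, 123, 117 and 178 CPM at BPA 25, every value under the lowest control at 193 CPM. The median was -0.26, with 58 members below 0 and 20 above, and in 9 members all BPA 25 libraries lay below all controls, against 9.79% of genes. Without the 4 libraries that stood apart, 5 members were called. Of 5 fat markers, Lpl was higher at BPA 25 and BPA 250, and the 5 summed to 412 to 1507 CPM at BPA 25 and 295 to 950 CPM at BPA 250, against 86.4 to 619 CPM in controls. The ciliated cell marker Spag6l was higher at BPA 25, where the 5 markers of the list summed to 24 to 44.5 CPM, against 0.797 to 1.98 CPM in controls. The part of these cells in the result was not tested.

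At BPA 2500 no member passed, nor did any gene of the table (background 0%), and 6 members had an unadjusted p under 0.05 against 10.2% of genes. DESeq2 and voom also called 0 members. At BPA 25000 no member passed (background 2.32%, with 0.962% lower and 1.36% higher), 4 had an unadjusted p under 0.05 against 19.3% of genes, and DESeq2 called 1 and voom 13. The median was -0.23 at BPA 2500 and -0.20 at BPA 25000. In 1 member all BPA 2500 libraries lay below all controls, against 3.75% of genes, and in 1 member all BPA 25000 libraries did, against 7.14% of genes. Rpl13 had the smallest p at both doses (-0.52, adjusted p = 0.261, at BPA 2500 and -0.51, adjusted p = 0.0744, at BPA 25000). At BPA 2500 it was followed by Rps23, Rpl11, Rpl22l1, Rplp1 and Rpl23a at adjusted p of 0.451 to 0.488. At BPA 25000 it was followed by Rpl11, Rpl22l1, Rps21, Rplp1 and Rps15a at 0.187 to 0.293.

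Rpl13, a large subunit protein, was the 1 member called lower for the mean of the 5 BPA doses against control, at -0.54 (SE 0.12, adjusted p = 0.0285), against a background of 0.759% called lower and 1.34% in either direction. It averaged 531 ± 110 CPM in controls, 329 ± 44.6 at BPA 2.5, 378 ± 49.4 at BPA 25, 378 ± 75 at BPA 250, 369.7 ± 50.8 at BPA 2500 and 373 ± 30.9 at BPA 25000 (SD, n = 4 each). The 4 controls had 398, 584, 650 and 491 CPM, so control replicate 1 lay within the range of the exposed libraries. The call was lost without control replicate 2, 3 or 4, and without the 4 libraries that stood apart 9 members were called. The median over members was -0.34, and the next smallest p-values belonged to Rpl11 (-0.59, adjusted p = 0.0614), Rps2 (-0.45, adjusted p = 0.0769) and Rplp1 (-0.62, adjusted p = 0.0773).

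Over the 5 BPA doses, a linear trend on the log10 dose called 2 members, both with a positive slope. The background was 1.2% of genes called higher, 3.42% lower and 4.62% in either direction. All 78 slopes were positive, with a median of 0.12 log2 units per 10-fold dose, and 38 had an unadjusted p under 0.05 against 22.8% of genes. Rpl27a rose by 0.25 per 10-fold dose (SE 0.06, adjusted p = 0.0275), with means of 347 ± 110 CPM in controls, 186 ± 78.1 at BPA 2.5, 247 ± 52.9 at BPA 25, 234 ± 67.5 at BPA 250, 342 ± 80.5 at BPA 2500 and 376 ± 90.4 at BPA 25000 (SD, n = 4 each). The 2 highest doses were thus near the control mean and the lowest dose was the farthest below it. Rpl22 had a slope of 0.20 (SE 0.06, adjusted p = 0.0381), but its lowest BPA group was BPA 250 and its highest BPA 25000. In BPA 25000 it was high in replicate 3, at 290 CPM, 1 of the 4 libraries that stood apart. The call of Rpl22 was kept in 7 of 16 fits with a library left out. The count was 0 in a fit of the groups compared alone, 0 without BPA 2.5 replicate 1 or BPA 25000 replicate 1 or 2, 13 without BPA 2.5 replicate 3 and 7 without the 4 libraries that stood apart. Along the same doses 4 of 5 ciliated cell markers (median of the list -0.86 per 10-fold dose) and 2 of 4 markers of stratified epithelium (median -0.63) were lower with dose. The ciliated cell markers summed to 0.797 to 1.98 CPM in controls, 2.68 to 421 at BPA 2.5, 24 to 44.5 at BPA 25, 1.39 to 14.8 at BPA 250, 3.83 to 125 at BPA 2500 and 4.22 to 15.3 at BPA 25000. Those of stratified epithelium summed to 4.49 to 19.3 CPM in controls, 18.7 to 35.7 at BPA 2.5, 5.24 to 7.52 at BPA 25, 1.61 to 4.5 at BPA 250, 3.50 to 19.5 at BPA 2500 and 1.97 to 6.42 at BPA 25000. The part of these cells in the trend was not tested.

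The test for any difference among the 5 BPA doses called 25 of 78 members (32.1%), next to a background of 31.7% of all genes, and among all 8 groups 28 members (35.9%), also against 31.7%. Without the 4 libraries that stood apart, 35 members were called among the doses, against 20.9% of genes, and 37 among the groups, against 26.4%, of which 22 and 25 were called with all libraries. Without BPA 2.5 replicate 3 the counts were 40, against 26% of genes, and 42, against 27.1%, and without BPA 2.5 replicate 4 they were 19, against 32.4%, and 23, against 34.3%. Of the 25, BPA 2.5 was the lowest dose group for 24, the exception being Rpl22, and the highest was BPA 250 for 15, BPA 25 for 8 and BPA 25000 for 2. The 25 were picked for differing among these same groups. Over all 78 tested members, BPA 2.5 was the lowest dose group for 59. The highest was BPA 25000 for 24, BPA 250 for 21, BPA 25 for 18 and BPA 2500 for 15. The shares of all genes with these lowest and highest groups are not given, so the orders are descriptions of the members only. Rps27l had the smallest adjusted p (0.00014), with means of 60.5 ± 21.9 CPM in controls, 19.9 ± 4.71 at BPA 2.5, 91.5 ± 18.5 at BPA 25, 79.2 ± 14.6 at BPA 250, 46.1 ± 25.3 at BPA 2500 and 40.8 ± 20.7 at BPA 25000 (SD, n = 4 each). All BPA 25 and BPA 250 libraries, at 63 to 112 CPM, were above all BPA 2.5 libraries. Rps15a, a small subunit gene, averaged 148 ± 64.8 CPM in controls, 63.6 ± 23.4 at BPA 2.5, 212 ± 18.5 at BPA 25, 238 ± 36.3 at BPA 250, 119 ± 61.4 at BPA 2500 and 97.8 ± 41.5 at BPA 25000 (SD, n = 4 each, edgeR adjusted p = 0.000231). Rpl22l1 (adjusted p = 0.000304), Rps21 (0.000537), Rpl39 (0.00133) and Rps29 (0.00161) came next.

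Several of these genes had high loadings on the second principal component of the members, which held 18.9% of the variance. It was positive in all 8 BPA 25 and BPA 250 libraries, at 0.76 to 3.95, and negative in all 4 controls, at -1.42 to -0.43. It was also positive in BPA 2.5 replicate 2, at 2.09, and in EE2 0.05 replicates 3 and 4, at 1.26 and 1.54, as well as in BPA 2500 replicate 2, at 0.61, and EE2 0.5 replicate 2, at 0.05. The component was computed with all 32 libraries. Its highest loadings were those of Rps15a, Rps27l, Rpl22l1, Rps21, Rpl39 and Rps29. Rps18, Rps19, Rpl22, Rpl36 and Rplp2 lay at its other end, and Rps18 and Rps19 were among the genes called lower at BPA 250. The map of fold changes by group shows the genes in the order of these loadings.

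**Figure D3:**
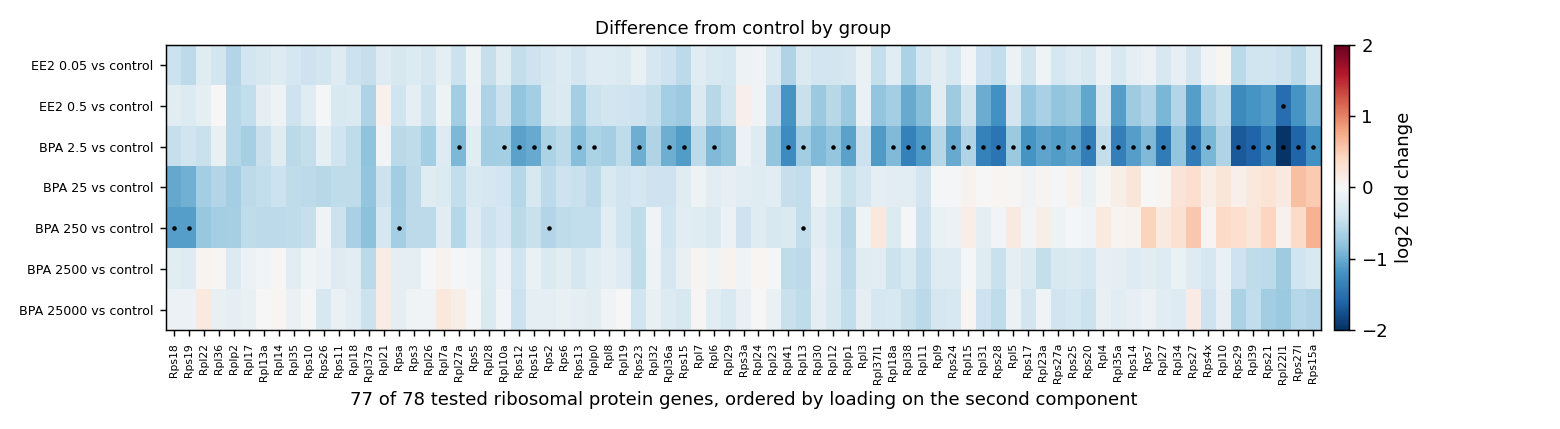
Log2 fold change of each exposed group against control (colour, blue lower) for 77 of the 78 genes, ordered from left to right by loading on the second component, with dots for adjusted p under 0.05. The BPA 2.5 row is negative throughout with 41 dots, and the BPA 25 and BPA 250 rows run from negative at Rps18 and Rps19 to positive at Rps27l and Rps15a. The component was computed from these same libraries, so a run along this order in those rows is in part built in.

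Rpl22 and its paralogue Rpl22l1 were compared as a pair, since in mouse cells Rpl22 is known to restrain Rpl22l1 expression. Rpl22 averaged 114 ± 14.1 CPM at BPA 25 and 107 ± 26.6 CPM at BPA 250, against 182 ± 24.5 CPM in controls (SD, n = 4 each), while Rpl22l1 averaged 186 ± 45.4 CPM at BPA 25 and 173 ± 31.4 CPM at BPA 250, against 164 ± 72.2 CPM in controls. Neither gene was called at those doses. The ratio of Rpl22l1 to Rpl22 counts was 0.350, 0.361, 0.271 and 0.285 at BPA 2.5 and 0.354, 0.481, 0.294 and 0.316 at EE2 0.5, against 0.645, 0.987, 1.30 and 0.614 in controls. Each of these exposed groups lay wholly below the controls. At BPA 25 the ratio was 1.29, 2.11, 1.39 and 1.71, and at BPA 250 it was 2.05, 1.97, 1.05 and 1.66, mostly above the controls with some overlap. At the highest doses the means were 0.544 at BPA 2500 and 0.500 at BPA 25000, and EE2 0.05 averaged 0.806. These ratios and their tests include the 4 libraries that stood apart, and the BPA 25000 library among them had the lowest ratio of its group, at 0.249. At BPA 2.5 the replicates not among them, 2 and 4, also lay below all controls.

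The ratios were tested on the log2 scale with a two-sided exact permutation test over the 70 splits of 4 against 4 libraries, whose smallest possible p is 0.0286, and adjusted over 14 tests of 2 gene pairs. BPA 2.5 and EE2 0.5 reached that smallest exact p (adjusted p = 0.133). BPA 25 and BPA 250 gave an exact permutation p = 0.0571 (adjusted p = 0.16), and BPA 2500 and BPA 25000 an exact permutation p = 0.114 (adjusted p = 0.229). EE2 0.05 gave an exact permutation p = 0.771. None passed after adjustment, and the design could not have brought a single pair of groups below 0.0286. For Rps27l and its parent Rps27, the ratio was 0.204 ± 0.027 at BPA 25000, against 0.337 ± 0.056 in controls (SD, n = 4 each, exact permutation p = 0.0286, adjusted p = 0.133). The other 6 groups gave an exact permutation p of 0.371 or more, and at BPA 2.5, where both genes were called lower, the ratio was 0.306 ± 0.103.

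**Figure D4:**
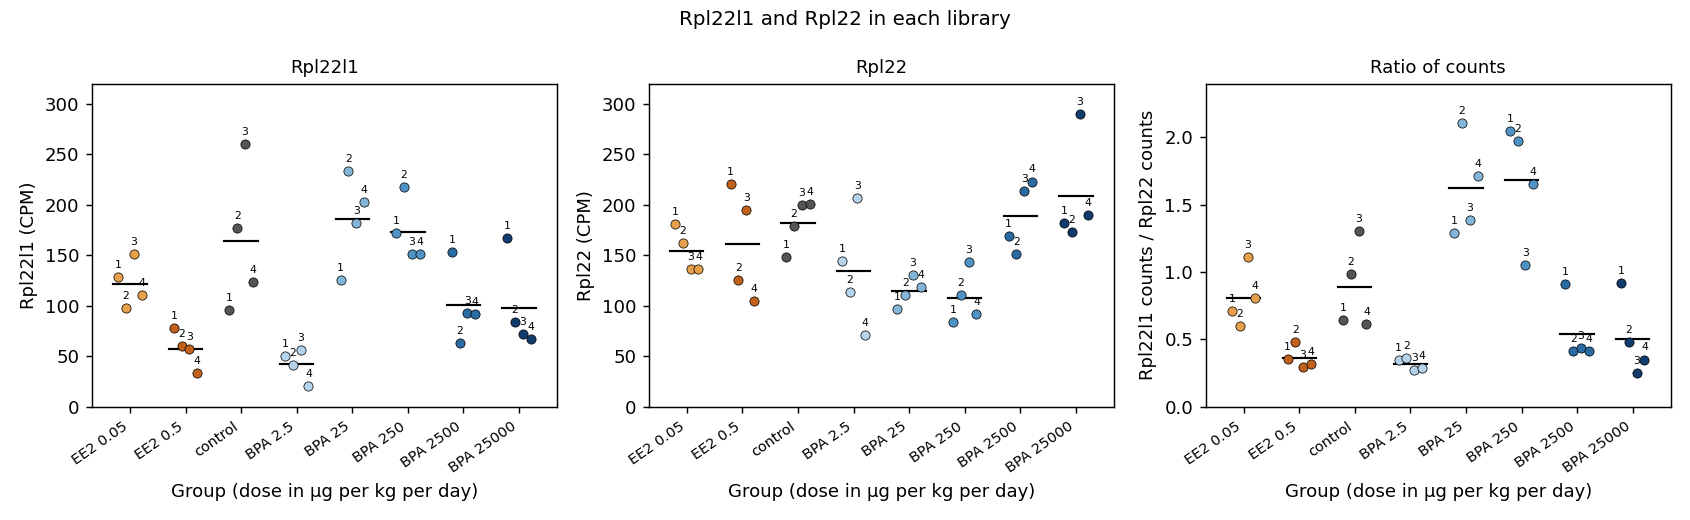
Rpl22l1 (left, CPM), Rpl22 (middle, CPM) and the ratio of their counts (right) in each library, numbered by replicate, with bars for group means. The ratio is at most 0.481 in the BPA 2.5 and EE2 0.5 libraries and at least 1.05 in the BPA 25 and BPA 250 libraries.

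Genes that work with the ribosomal proteins were tested in the same fits. Of 4 ribosomal proteins outside the naming rule, 2 were lower at BPA 2.5 (50%, against 4.39% of all genes), among them Rpl36al1 at -1.07 (adjusted p = 0.00475). Rack1, the small subunit's scaffold protein, rose with BPA dose by 0.16 per 10-fold dose (adjusted p = 0.0483), where 1.2% of all genes were called higher. Of 19 translation factors, many of them encoded by pyrimidine-tract messenger RNAs, 2 were lower at BPA 2.5 (against 4.39% of all genes called lower and 11.4% in either direction, with a list median of -0.29), the elongation factor subunits Eef1b2 (-0.90, adjusted p = 0.0166), which also rose with BPA dose by 0.18 per 10-fold dose (adjusted p = 0.0475), and Eef1g (-0.58, adjusted p = 0.0293). Eif3k, a subunit of initiation factor 3, was lower at BPA 25 (-0.71, adjusted p = 0.0428) and BPA 250 (-0.63, adjusted p = 0.0322), the 1 gene of the list called at each. That is 5.26% of the list, against 0.969% of all genes called lower at BPA 25 and 4.35% at BPA 250. Of 22 tested ribosome biogenesis genes, the snoRNP proteins Nop58 (-0.63, adjusted p = 0.0271) and Nhp2 (-0.83, adjusted p = 0.0145) were lower at BPA 2.5 (9.09% of the list, against 4.39% of all genes, with a median of -0.40). At BPA 250, 4 others were lower (18.2%, against 4.35% of all genes, with a median of -0.33): Bop1 (-1.06, adjusted p = 0.015) and Wdr12 (-0.71, adjusted p = 0.0376), which mature large subunit RNA, Nop2 (-0.60, adjusted p = 0.0368) and the small subunit nuclease Nob1 (-0.61, adjusted p = 0.0426).

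The RNA polymerase I list, which covers synthesis of ribosomal RNA, had 3 of 9 tested genes called at BPA 250, against 8.79% of all genes, with Ubtf (-0.47, adjusted p = 0.0433) and Taf1c (-0.96, adjusted p = 0.0426) lower and Rrn3 (0.42, adjusted p = 0.0459) higher. Of 18 tested regulators, Eif4ebp2, a repressor of cap-dependent translation, was the 1 called at BPA 2.5 and was higher (0.77, adjusted p = 0.00345), a share of 5.56% against 7.06% of all genes called higher. Sp1, a transcription factor, was higher at BPA 25 (0.68, adjusted p = 0.0461) and BPA 250 (0.76, adjusted p = 0.0134), where 0.954% and 4.44% of all genes were called higher. Mdm2 fell with BPA dose by 0.22 per 10-fold dose (adjusted p = 0.0167), where 3.42% of all genes were called lower. Medians of this list stayed between -0.08 and 0.05 in the 7 groups against control.

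Short messenger RNAs that have no part in the ribosome moved with the ribosomal protein genes. A list of 34 tested genes for small subunits of the respiratory chain, splicing particles and other small proteins had 21 lower and 0 higher at BPA 2.5 (61.8%, against 4.39% of all genes called lower), with a median of -1.06, and 5 lower at EE2 0.5 (14.7%, against 0.293%), with a median of -0.81. Snrpd2 and Fth1 were lower at BPA 250 (5.88% of the list, against 4.35% of all genes called lower), a share near the background. Snrpd2 was the 1 gene called for the mean of the BPA doses, and was lower (2.94%, against 0.759% of all genes). Cox7b was the 1 gene called in the dose trend, and rose with BPA dose (2.94%, against 1.2% of all genes called higher). At BPA 2.5 the smallest p-values belonged to the cytochrome oxidase subunits Cox7b (-1.68, adjusted p = 0.00261) and Cox7c (-1.50, adjusted p = 0.00349), Sec61b of the protein translocation channel (-1.56, adjusted p = 0.00301) and the ATP synthase subunit Atp5mf (-1.20, adjusted p = 0.00329). At EE2 0.5 the calls were Ndufa1, Cox7b, Atp5mf, Sec61b and Dynll1, at -1.56 to -1.06 (adjusted p of 0.0398 to 0.0472). Library by library, the list's median was -0.50, -0.98, -0.10 and -0.99 at BPA 2.5, against 0.04, 0.58, 0.81 and 0.38 in controls, while the median of the ribosomal protein genes was -0.42, -0.80, 0.09 and -1.03 at BPA 2.5, against -0.08, 0.35, 0.78 and 0.28 in controls. The libraries lowest and highest in one list were those lowest and highest in the other. The list was chosen with earlier results of these data known, transcript lengths were not measured here, and the part of transcript length or RNA quality in the ribosomal protein result was not tested.

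**Figure D5:**
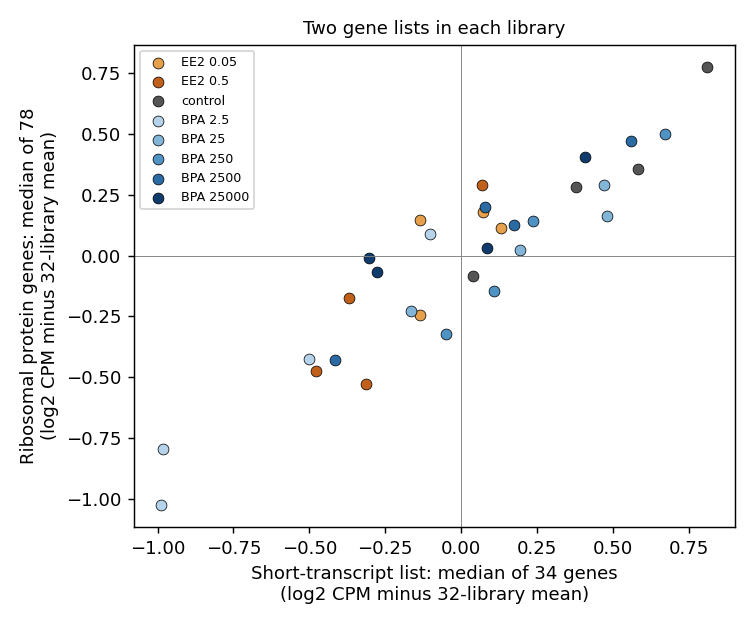
Each point is a library, coloured by group. The x axis gives the median of 34 short-transcript genes and the y axis the median of 78 ribosomal protein genes, both as log2 CPM minus each gene's 32-library mean. BPA 2.5 replicates 2 and 4 lie lowest on both axes and control replicate 3 highest on both.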

How the data were processed

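Whole uterus RNA was sequenced in 32 libraries, 8 groups of 4, after extraction with a lipid tissue kit per the labels' protocols. The deposited values are counts per NCBI gene ID, not normalized by the authors. The submitters' processing notes name bcl2fastq, TopHat, edgeR and build rn5; no source used here gives the annotation, strand handling or treatment of multiply mapped reads. Symbols came from RefSeq (GRCr8): 17167 of 17327 gene IDs matched, and the 160 others held 1.82% of counts. No pair of libraries was identical.

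The counts were fitted with edgeR 4.0.16 (R 4.3.3) over all 8 groups (filterByExpr at min.count 10 and min.total.count 15, TMM, quasi-likelihood test, Benjamini-Hochberg adjustment over 13312 genes, threshold 0.05), for 13 comparisons; log2 CPM used a prior count of 2. The model was also run on simulated counts with changes set at BPA 2.5 against control. It called 63 of 100 genes changed 2-fold and 87 of 100 changed 3-fold, with 4 other genes called. Genes were drawn independently there, so the run could not test shifts that many genes of a library share. Named genes are all members called where there were at most 30, otherwise the 12 largest changes in each direction, the 6 smallest p-values where fewer than 6 passed, a fixed panel, and up to 6 called genes per other list. The members and lists were chosen with earlier results of these data known. Alternatives were DESeq2 1.42.0 (test and size factors), limma 3.58.1 voom with sample weights, TMM without the ribosomal protein genes, no filter or 1 CPM in 16 libraries, a threshold of 0.1, fits of the compared groups alone, and libraries left out. A few genes that these rules name are not reported here.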

Additional observations from a re-analysis of the deposited data

Results flagged for a closer look

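In groups of 4, a library was marked where its gap to the nearest other exceeded Dixon's 95% critical value as a part of the group's range: 15 of 160 groups examined were marked, and chance marks about 1 in 20. BPA 25000 replicate 1 stood above its group in 6 genes: Rpl22l1 at 167 CPM, Rps27l at 71.6, Rps27 at 423, Rpl39 at 558, Rps29 at 950 and Rps21 at 273 CPM. In the same group Rpl22 was high in replicate 3, at 290 CPM. Rps27l was high in BPA 2500 replicate 1 at 83.8 CPM and in BPA 2.5 replicate 3 at 26.9 CPM. Rpl3 was low in BPA 2.5 replicate 4 at 967 CPM, and Rpl39 and Rps15a were low in BPA 25 replicate 1 at 408 and 185 CPM. Rps15a was high in EE2 0.05 replicate 3 at 147 CPM, and Rps19 in EE2 0.5 replicate 1 at 691 CPM. The member median was low in EE2 0.05 replicate 4, at -0.24 log2 units.

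The level of 25 members differed among the 5 BPA doses by edgeR's F test, next to a background of 31.7% of genes.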

How the results depend on the processing

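No paired analysis was possible because the labels give no replicate number, animal or litter shared between groups, and the replicate numbers used here follow only the order of deposit. Of 882 results for a named gene under an alternative, 677 kept their call, 205 lost it and 0 changed sign. The counts at BPA 2.5 were 2 with only the compared groups and 12 to 53 with a library left out. The median at BPA 2.5 moved to -1.15 without the 4 libraries that stood apart, a fit that left this group with replicates 2 and 4. At EE2 0.5 the count was 9 at a threshold of 0.1 and by DESeq2, 18 by voom, 2 with the compared groups alone or without the 4 libraries, and 0 to 8 with a library left out. At BPA 25 it was 4 at 0.1, 4 with the compared groups, 3 by DESeq2, 10 by voom (8 lower, 2 higher) and 5 without the 4 libraries. At BPA 250 it was 0 with no filter, 10 at 0.1, 3 with the compared groups, 17 by voom (16 lower, 1 higher), 1 without the 4 libraries and 0 to 8 with a library left out. At BPA 25000 it was 1 at 0.1, 1 by DESeq2, 13 by voom and 0 to 1 with a library left out. The mean of EE2 gave 2 with the compared groups, 1 by DESeq2, 12 by voom and 0 to 1 with a library left out. The mean of BPA gave 6 at 0.1, 0 with the compared groups, 4 by DESeq2, 13 by voom, 9 without the 4 libraries and 0 to 4 with a library left out. The trend gave 7 at 0.1, 0 with the compared groups, 4 by DESeq2, 1 by voom, 7 without the 4 libraries and 0 to 13 with a library left out. The F tests gave 19 to 40 among BPA doses and 22 to 42 among groups with a library left out. The counts at EE2 0.05, at BPA 2500 and between the EE2 doses stayed at 0 under every alternative run. These counts are given without the share of all genes called under each alternative. The causes were not tested.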
